A study of Rattus norvegicus with 6 samples.

Results

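The insulin-like growth factor (IGF) family was described here in BRL-3A, an established rat liver cell line known as a source of secreted Igf2, through 10 genes: the ligands Igf2 and Igf1, the receptors Igf1r, Igf2r and Insr, and the binding proteins Igfbp2, Igfbp3, Igfbp4, Igfbp5 and Igfbp6. The members were the rows of the deposited gene table that carry these symbols, and all 10 were found, each as a single gene model, among 30957 genes. RNA sequencing covered 6 libraries of cells harvested 48 h after lipid transfection, 3 in a group called NC and 3 in a group called si-hnrnpa2b1, in which siRNA was aimed at Hnrnpa2b1, an RNA-binding protein of the hnRNP family. The labels do not spell out NC or say what those cells received. The labels of both groups also carry Sprague-Dawley as strain, liver as tissue and a raised triglyceride level as disease state, although the name of the line refers to the Buffalo rat. The cells grew in medium with fetal bovine serum. The comparison asks which IGF family transcripts differ when Hnrnpa2b1 mRNA is lowered.

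IGF ligands are secreted polypeptides that promote growth and survival of cells. Both bind the tyrosine kinase receptor Igf1r, and Igf2 also binds an isoform of the insulin receptor Insr. Igf2r, the cation-independent mannose 6-phosphate receptor, takes Igf2 to lysosomes and does not signal as a kinase. The binding proteins hold IGFs outside the cell and can limit or prolong their action. In the liver Igf2 is typical of the fetus, and Igf1 is made by adult hepatocytes under growth hormone.

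Library totals lay between 13374412 and 15224108 counts. Hnrnpa2b1 mRNA gave 953, 1064 and 1025 CPM (counts scaled to a common library size, with TMM factors) in NC and 662, 584 and 573 CPM in si-hnrnpa2b1 libraries, a fall of 40.2% that left the transcript abundant (log2 fold change -0.74 ± 0.06 SE, adjusted p in edgeR = 2.3e-06). Of 12 hepatocyte markers, Alb, Ttr and Hnf4a among them, 8 had 0 counts in all libraries and 0 reached the level needed for testing. Their summed level was 0.227 to 0.988 CPM in NC and 0.597 to 1.36 CPM in si-hnrnpa2b1 libraries. Of 10 stellate and mesenchymal markers 2 were listed at 0, Lrat and Col1a2. The summed level of these markers was 15267 to 15653 CPM in NC and 15191 to 16154 CPM in si-hnrnpa2b1 libraries. Most of it was Col1a1, at a mean of 11774 CPM in NC, followed by Col3a1 at 2059 and Vim at 1308 CPM. Acta2, Tagln, Des and Pdgfrb had 142, 82.0, 58.4 and 28.8 CPM in NC. Among the 8 tested, 3 rose (Acta2, Tagln and Des, log2 0.27, 0.44 and 0.30) and 0 fell by edgeR, while 2.36% of all tested genes were called higher and 2.94% lower. The other 5 did not pass, with log2 values from -1.42 for the scarce Pdgfra (1.14 and 0.424 CPM, unadjusted p = 0.017) through -0.03 for Col3a1 and -0.01 for Col1a1 to 0.13 for Vim. Summed cholangiocyte, endothelial and leukocyte markers reached at most 15.03, 48.7 and 2.85 CPM in any library. In NC the endothelial sum was mostly Tek and Kdr, at 27.4 and 15.9 CPM, with Stab2 and Cdh5 at 0.762 and 0.0449 CPM. Pecam1, also on that list, had no gene model of its symbol. The cholangiocyte sum was mostly Spp1 and Krt7, at 7.27 and 5.86 CPM in NC, and Epcam had 0 counts in all libraries. Of the cholangiocyte, endothelial and leukocyte markers, 0 of 7 tested genes passed by edgeR. An unadjusted p below 0.05 was found for 1 of them, as for 2249 of all 12261 tested genes. The part of these markers in the results below was not tested. In such bulk libraries, fewer cells with a transcript and less transcript per cell cannot be told apart.

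By edgeR 3 of the 10 members were called, beside 5.30% of all tested genes: Igf2 and Igfbp5 fell and Igfbp4 rose. The call of Igfbp5 was lost in 6 of 15 alternative settings, that of Igf2 in 2 and that of Igfbp4 in 0. The starts of these genes shown here are those annotated in RefSeq, and the starts used in these cells were not measured. Windows from 250 bases before to 50 bases after each start are printed 5′ to 3′ along the gene. They follow build GRCr8, in which coordinates differ from those of the deposited table. RefSeq gives a window for all 10 members and a pair for Igf2, 11 in all. The deposited counts do not separate the Igf2 starts. Capitals mark matches on either strand to the TATA box word TATAAA or the GC box word GGGCGG.
Igf2, chr1:207250426-207250725, minus strand: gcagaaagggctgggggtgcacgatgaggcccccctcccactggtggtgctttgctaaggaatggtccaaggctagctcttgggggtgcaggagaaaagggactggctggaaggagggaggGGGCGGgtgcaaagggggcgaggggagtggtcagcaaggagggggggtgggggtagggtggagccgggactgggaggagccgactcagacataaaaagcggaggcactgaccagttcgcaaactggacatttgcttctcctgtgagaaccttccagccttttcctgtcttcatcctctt
Igf2, chr1:207253931-207254230, minus strand: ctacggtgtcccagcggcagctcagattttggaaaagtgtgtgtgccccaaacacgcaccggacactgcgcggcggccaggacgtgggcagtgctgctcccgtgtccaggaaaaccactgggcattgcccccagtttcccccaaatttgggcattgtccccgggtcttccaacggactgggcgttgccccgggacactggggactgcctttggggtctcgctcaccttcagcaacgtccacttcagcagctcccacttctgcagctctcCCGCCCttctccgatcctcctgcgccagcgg
Igfbp4, chr10:84491221-84491520, plus strand: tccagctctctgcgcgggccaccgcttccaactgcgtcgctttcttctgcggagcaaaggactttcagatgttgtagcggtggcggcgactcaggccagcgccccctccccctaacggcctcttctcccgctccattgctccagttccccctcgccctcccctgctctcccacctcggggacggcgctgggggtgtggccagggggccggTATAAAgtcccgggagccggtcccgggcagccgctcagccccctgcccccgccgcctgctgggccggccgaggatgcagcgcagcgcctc
Igfbp5, chr9:81914138-81914437, minus strand: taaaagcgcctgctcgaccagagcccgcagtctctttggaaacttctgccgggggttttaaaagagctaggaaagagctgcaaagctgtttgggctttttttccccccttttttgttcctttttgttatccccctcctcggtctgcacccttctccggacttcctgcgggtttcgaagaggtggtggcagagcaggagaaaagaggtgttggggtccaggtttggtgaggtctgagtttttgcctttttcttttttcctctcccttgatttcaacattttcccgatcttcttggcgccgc
The letters TATAAA were found in 1 of the 11 windows, that of Igfbp4, with the first base 40 bases before the start, and in 14.2% of 33469 rat promoter windows of the same length. GGGCGG was found in 5 of 11, both of Igf2 and those of Igf1r, Igf2r and Igfbp2, against 33.1% of all windows. The word CCAAT was found in 0 of 11, against 37.5% of all windows. No match overlapped another. Guanine and cytosine made up 60.7% and 63.3% of the Igf2 windows, 71.0% of that of Igfbp4 and 50.7% of that of Igfbp5. These matches describe the letters only.

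Compared per length, the family was dominated by Igf2 and its carrier Igfbp2. In FPKM, which divides counts by gene model length and library total, Igf2 stood at 1094 ± 85.9 (SD, n = 3) in NC libraries, the place 28 among all genes of the table. The genes just above it were Fth1, the ferritin heavy chain, at 1198 FPKM, and B2m, the light chain of MHC class I, at 1197 FPKM, and those just below were P4hb, a collagen prolyl hydroxylase subunit, at 1074 FPKM and Ptma at 1037 FPKM. Igfbp2, a binding protein that was isolated from medium of this cell line, followed at 585 ± 41.2 FPKM, place 72 among all genes. Then came Igf2r at 63.6 (62.1 to 64.5), Igfbp4 at 57.9 ± 2.69, Igfbp6 at 34.3 ± 1.13, Igf1r at 13.7 ± 0.399 and Igfbp5 at 10.0 ± 0.636 FPKM. Igf1 at 3.29 ± 0.495 and Insr at 3.06 ± 0.0769 FPKM did not differ beyond their spread, whereas the NC ranges of all other neighbours in the order were apart. Igfbp3 closed the order at 0.351 ± 0.179 FPKM. Levels per length rest on the gene models of the deposited table, which imply 1069 bases for Igfbp6, 1280 for Igfbp2, 5885 for Igf2 and 8787 for Igf2r.

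**Figure D1:**
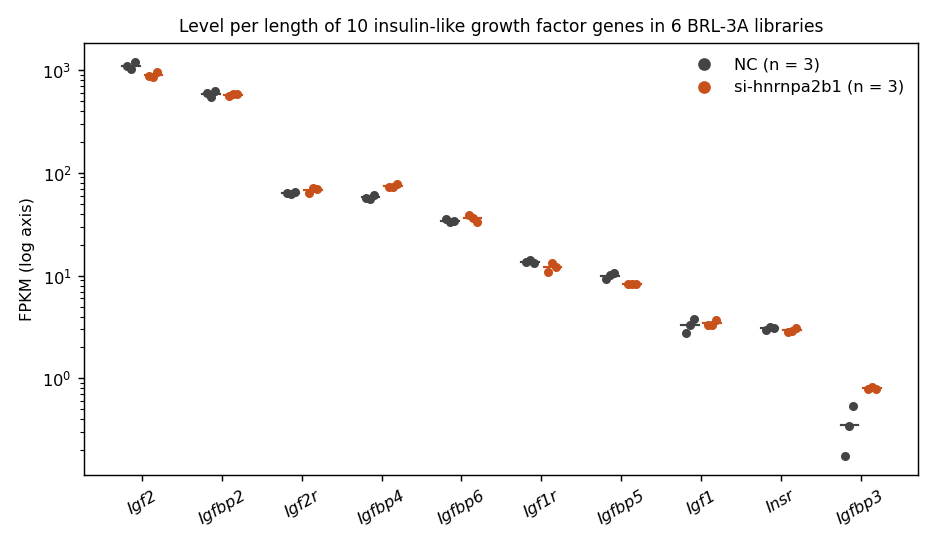
Deposited FPKM (log axis) of the 10 members in each of 3 NC (grey) and 3 si-hnrnpa2b1 (orange) libraries, with lines at the group means, ordered by the NC mean. Levels run from 1094 FPKM for Igf2 to 0.351 FPKM for Igfbp3, and Igfbp4 lies below Igf2r in NC and above it in si-hnrnpa2b1 libraries.

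Ligand transcript was almost entirely Igf2. The ratio of Igf2 to Igf1 FPKM was 390, 304 and 315 across NC, against 262, 254 and 257 after the siRNA. Igf2r exceeded the signalling receptor Igf1r by 4.64 ± 0.227 times in NC, and Igf1r exceeded Insr by 4.47 ± 0.122 times. Of the FPKM summed over the 5 binding proteins, Igfbp2 held 85.1% ± 0.572 in NC. Transcripts of insulin (Ins1 and Ins2) and of Igfbp1, a binding protein of adult liver, were at 0 counts in each of the 6 libraries, which at a limit of 3 counts allows up to 0.199 to 0.227 CPM per library, for counting error only. Col1a2 was also listed at 0 while Col1a1 stood at 11774 CPM, so a 0 in this table does not by itself show that a transcript was absent. Igfals, which joins Igfbp3 and IGF in the circulating complex, had 0, 0 and 1 counts across NC, against 0, 2 and 9 after the siRNA.

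Across the 10 members, all of which passed the filter on low counts, 1 rose, 2 fell and 7 did not pass edgeR's quasi-likelihood test of si-hnrnpa2b1 against NC (adjusted p below 0.05 by Benjamini-Hochberg over 12261 genes), while 5.30% of all tested genes were called. Igfbp4, the single rise, compares with 2.36% of genes called upward and the pair of falls with 2.94% called downward. The groups did not overlap in 4 members, against 23.4% of tested genes. The members were chosen with earlier results of these data known, so these shares are given with no test. The median size of the log2 fold change was 0.10 over all tested genes and 0.14 over the members, and the signed medians were -0.0015 and 0.02. Nothing in the labels tells whether the 3 libraries of a group stem from separate cultures, and the spread behind each p may therefore be technical.

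Igf2 (ENSRNOG00000020369, chromosome 1, 215828102 to 215846911 of Rnor_6.0), the fetal growth factor, gave 6324, 6036 and 6924 CPM in NC and 5192, 4959 and 5558 CPM in si-hnrnpa2b1 libraries. Every si-hnrnpa2b1 library lay below every NC library. The transcript fell from 6428 ± 453 to 5237 ± 302 CPM, by 18.5% (log2 -0.30 ± 0.06 SE, adjusted p in edgeR = 0.0057), and remained the most abundant member. Its share of all counts went from 0.644% ± 0.0506 to 0.523% ± 0.0312. The fold change stayed between -0.34 and -0.24 when single libraries were left out, and the call was lost with limma on log2(FPKM + 1) or log2(FPKM + 0.1), with adjusted p = 0.078 and 0.073. Among all 12261 tested genes, 217 had a smaller p and 1651 a larger fold change in size.

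Igf1 (chromosome 7, 28412198 to 28486609), the ligand of the adult liver, gave 6.35, 7.79 and 8.62 CPM in NC and 7.76, 7.66 and 8.47 CPM in si-hnrnpa2b1 libraries. The ranges overlapped, with a log2 fold change of 0.07 ± 0.15 (adjusted p in edgeR = 0.87).

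Among the binding proteins, Igfbp4 rose and Igfbp5 fell. Igfbp4 (ENSRNOG00000010635, chromosome 10, 86950557 to 86962578), which mainly inhibits IGF action until it is cleaved by the protease Pappa, gave 122, 123 and 132 CPM in NC and 158, 157 and 169 CPM in si-hnrnpa2b1 libraries. The groups were well apart. It rose by 28.4%, from 126 ± 5.17 to 161 ± 6.66 CPM (log2 0.36 ± 0.05 SE, adjusted p in edgeR = 5.7e-04), and was called in all 15 alternative settings, with adjusted p from 2.8e-07 to 0.018.

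Igfbp5 (ENSRNOG00000017206, chromosome 9, 80150211 to 80167033), a binding protein that also attaches to the extracellular matrix, gave 66.3, 72.5 and 75.3 CPM in NC and 59.97, 59.1 and 58.8 CPM in si-hnrnpa2b1 libraries. All 3 si-hnrnpa2b1 values were lower, and they lay closer together than those of NC. It fell by 16.9%, from 71.4 ± 4.64 to 59.3 ± 0.595 CPM (log2 -0.27 ± 0.06 SE, adjusted p in edgeR = 0.021). The call was lost without NC replicate 3 (adjusted p = 0.095), without si-hnrnpa2b1 replicate 1, 2 or 3 (0.056, 0.082 and 0.087) and with limma on FPKM (0.14 at both pseudocounts).

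Igfbp2 (ENSRNOG00000016957, chromosome 9, 80118029 to 80144789) lies 5421 bases from Igfbp5 in the deposited gene models. It gave 753, 700.4 and 791 CPM in NC and 719.8, 738 and 750.3 CPM in si-hnrnpa2b1 libraries, which fell within the NC range. Its log2 fold change was -0.02 ± 0.05 (adjusted p in edgeR = 0.86). The ratio of Igfbp2 to Igfbp5 FPKM was 63.3, 53.8 and 58.5 across NC, against 66.9, 69.7 and 71.1 after the siRNA, higher in each of the latter.

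Igfbp3 (ENSRNOG00000061910, chromosome 14, 87457647 to 87465374), the main IGF carrier of serum, was close to the limit of detection. It had 6, 11 and 19 counts in NC and 29, 29 and 28 counts in si-hnrnpa2b1 libraries, or 0.423, 0.832 and 1.28 against 1.92, 1.97 and 1.90 CPM. The groups did not overlap, and NC values varied about their mean far more than the others, with a coefficient of variation of 50.7% against 1.78%. At counts this low, counting error alone spreads values widely, so this contrast in spread says little of the groups and was not tested. The log2 fold change of 1.17 ± 0.36 was larger than that of all but 43 tested genes but missed the threshold (adjusted p in edgeR = 0.071). It was 0.85 without NC replicate 1 (adjusted p = 0.23) and 1.62 without NC replicate 3 (adjusted p = 0.035), the single setting in which it passed (DESeq2 gave it no adjusted p). Without each of the other libraries the adjusted p was 0.14 to 0.18, and with a replicate block it was 0.10. The log2 fold change was 0.42 with limma on log2(FPKM + 1), a scale that understates changes of low genes. Its neighbour Igfbp1, 3861 bases away, was at 0 counts as described.

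Igfbp6 (chromosome 7, 143749221 to 143754054), which prefers Igf2 over Igf1, gave 37.7, 36.2 and 35.9 CPM in NC and 41.8, 38.7 and 35.4 CPM in si-hnrnpa2b1 libraries. The ranges overlapped (log2 0.08 ± 0.08, adjusted p in edgeR = 0.66). Igfbp7, a distant relative with low affinity for IGFs and no member here, had 278 ± 8.33 and 275 ± 16.2 CPM (log2 -0.02 ± 0.05, adjusted p in edgeR = 0.91).

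**Figure D2:**
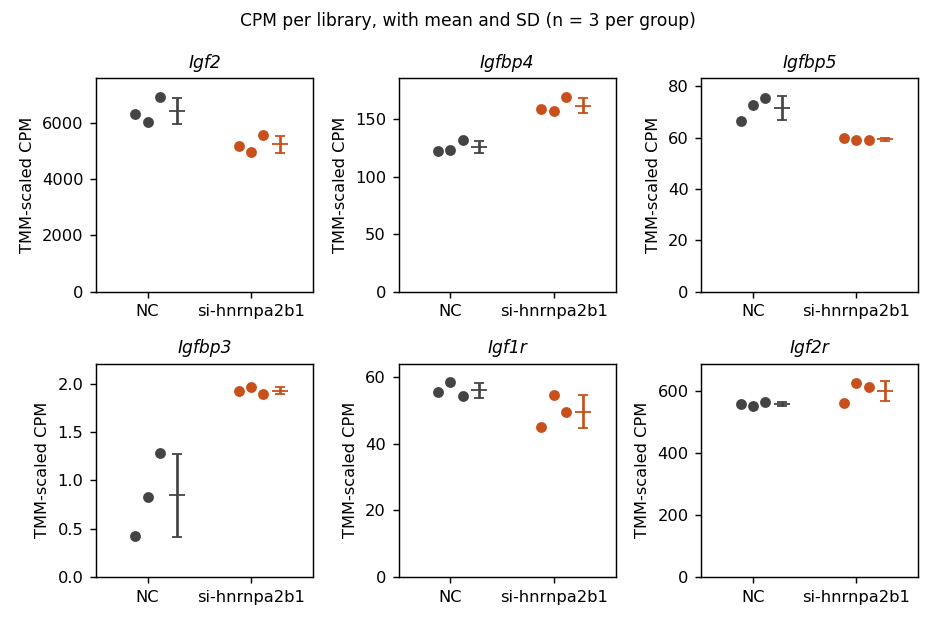
TMM-scaled CPM of 6 members in each library (points) with the group mean and SD (bars, n = 3), each panel on its own axis from 0. Igf2 and Igfbp5 lie lower and Igfbp4 and Igfbp3 higher in all si-hnrnpa2b1 libraries, while the groups overlap for Igf1r and Igf2r.

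None of the receptors passed the test. Igf1r (ENSRNOG00000014187, chromosome 1, 128924966 to 129206516) gave 55.5, 58.6 and 54.3 CPM in NC and 44.9, 54.6 and 49.4 CPM in si-hnrnpa2b1 libraries. The highest si-hnrnpa2b1 value lay just above the lowest NC value, and the log2 fold change was -0.18 ± 0.07 (adjusted p in edgeR = 0.21). Igf2r (ENSRNOG00000014997, chromosome 1, 48176106 to 48264477) gave 559, 552 and 563 CPM in NC and 561, 624 and 612 CPM in si-hnrnpa2b1 libraries (log2 0.10 ± 0.05, adjusted p in edgeR = 0.24). Here si-hnrnpa2b1 replicate 1 fell among the NC values and the other two lay above them. Insr (chromosome 12, 1680957 to 1816414) gave 25.6, 27.5 and 26.5 CPM in NC and 24.7, 25.2 and 26.9 CPM in si-hnrnpa2b1 libraries, which overlapped (log2 -0.05 ± 0.08, adjusted p in edgeR = 0.83). Unadjusted p-values of Igf1r and Igf2r in edgeR were 0.032 and 0.040, while 2249 of all 12261 tested genes had one below 0.05.

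**Figure D3:**
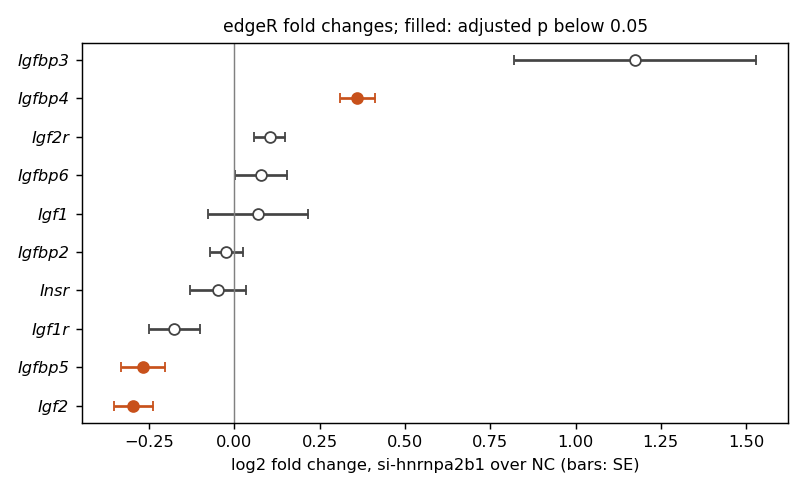
Log2 fold changes of si-hnrnpa2b1 over NC (points) with SE (bars) from the edgeR fit for the 10 members; filled points had an adjusted p below 0.05. Igf2 (-0.30) and Igfbp5 (-0.27) lie left of 0 and Igfbp4 (0.36) right of it, while Igfbp3 (1.17) has the widest bar.

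Ratios set the members against each other within a library. The ratio of Igf2 to Igfbp4 FPKM was 19.1, 18.1 and 19.4 across NC, against 12.1, 11.7 and 12.2 after the siRNA, a mean lower by a factor of 0.634. Igf2 stood at 1.83, 1.87 and 1.90 times Igfbp2 in NC and at 1.57, 1.46 and 1.61 times in si-hnrnpa2b1 libraries. Its ratio to Igf2r was 17.2 ± 1.05 in NC and 13.1 ± 1.06 in si-hnrnpa2b1 libraries. The ratio of Igf2r to Igf1r was 4.70, 4.39 and 4.84 across NC, against 5.83, 5.33 and 5.78 after the siRNA, without overlap, although neither gene passed on its own. The ratio of Igfbp4 to Igf2r went from 0.910 ± 0.0313 to 1.09 ± 0.0664, so these neighbours changed places in the order of levels. They were near a tie, with a ratio of 1.01 in si-hnrnpa2b1 replicate 2. Which of them stands higher rests on the model lengths, 2176 bases for Igfbp4 and 8787 for Igf2r. Igfbp4 made up 8.42% ± 0.293 of summed binding protein FPKM in NC and 10.7% ± 0.312 in si-hnrnpa2b1 libraries. The sum itself was 688 ± 44.1 and 694 ± 15.9 FPKM. Of the 9 ratios computed, that of Igf1r to Insr overlapped between groups. Most of the others hold Igf2, Igfbp4 or Igfbp5, whose own groups were apart, so their separation adds no count to that of the members. The ratios were chosen after levels were seen, share members with each other and are given with no test.

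Genes around the IGF axis were taken from 6 lists. The lists were chosen with earlier results of these data known, so their shares are given with no test. In them 64 gene models were tested and 7 (10.9%) were called, 3 upward and 4 downward, beside 5.30% of all genes. That count was 2 without NC replicate 1, NC replicate 3 or si-hnrnpa2b1 replicate 3, 3 without si-hnrnpa2b1 replicate 1 or 2, 3 with limma on FPKM and 4 with a replicate block. In the list of proteases that cleave binding proteins and of stanniocalcins, 1 of 6 tested genes rose, 1 fell and 4 did not pass (median log2 -0.12). Stc2, a secreted stanniocalcin that inhibits the protease Pappa, gave 13.3, 12.2 and 13.9 CPM in NC and 24.9, 23.0 and 27.5 CPM in si-hnrnpa2b1 libraries. It rose 1.91-fold (log2 0.93 ± 0.10, adjusted p in edgeR = 6.6e-05) and was called in all 15 settings. Adam12, a metalloprotease that can cleave Igfbp3 and Igfbp5, fell from 116 ± 0.407 to 97.9 ± 7.98 CPM (log2 -0.25 ± 0.06, adjusted p in edgeR = 0.023). Pappa itself had 33.0 ± 5.57 and 30.4 ± 4.90 CPM (log2 -0.12 ± 0.12, adjusted p in edgeR = 0.68) and its relative Pappa2 1.87 and 1.33 CPM (adjusted p = 0.48 by edgeR).

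In the list of receptor signalling, which runs from adaptors to kinases and FOXO factors, 2 of 35 tested models rose, 1 fell and 32 did not pass (median log2 -0.02). Foxo4, a transcription factor restrained by Akt, gave 60.7, 59.5 and 66.4 CPM in NC and 46.1, 44.0 and 50.1 CPM in si-hnrnpa2b1 libraries. It fell by 24.9% (log2 -0.41 ± 0.07, adjusted p in edgeR = 0.0023) and was called in all 15 settings, with adjusted p up to 0.047. Eif4ebp1, a translation repressor inactivated by mTOR, rose from 68.7 ± 2.64 to 80.5 ± 1.49 CPM (log2 0.23 ± 0.06, adjusted p in edgeR = 0.030). Irs1, the adaptor that links Igf1r and Insr to PI3-kinase, rose from 104 ± 3.33 to 124 ± 13.4 CPM (log2 0.25 ± 0.07, adjusted p in edgeR = 0.047). Its call was lost in 8 of the 15 alternative settings, among them total counts alone (adjusted p = 0.051) and a replicate block (0.051), and without si-hnrnpa2b1 replicate 2 the log2 fold change was 0.16 (adjusted p = 0.20). Its relative Irs2 had 36.0 ± 0.952 and 38.3 ± 0.187 CPM (adjusted p in edgeR = 0.54), and Grb10, an imprinted adaptor that restrains both receptors, 608 ± 10.3 and 582 ± 11.5 CPM (adjusted p in edgeR = 0.45).

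Among 8 genes of precursor processing and mannose 6-phosphate sorting, 0 rose and 1 fell (median log2 -0.01): Pcsk6, a proprotein convertase, went from 140.2 ± 2.32 to 124 ± 2.42 CPM (log2 -0.18 ± 0.05, adjusted p in edgeR = 0.037). Nagpa, which uncovers the mannose 6-phosphate tag, and Gnptg, a subunit of the enzyme that attaches it, had adjusted p = 0.29 and 0.65 in edgeR. Among 9 tested Igf2 regulators and imprinted genes, 0 rose and 1 fell (median log2 -0.01): Peg3, a zinc finger protein of an imprinted domain, went from 117 ± 6.70 to 99.8 ± 3.06 CPM (log2 -0.22 ± 0.06, adjusted p in edgeR = 0.029). The paternally expressed Dlk1 had 16.3 ± 1.14 and 13.5 ± 0.555 CPM and did not pass (log2 -0.27 ± 0.11, adjusted p in edgeR = 0.18). H19, the imprinted RNA gene beside Igf2, was on this list but had no gene model of its symbol, so it could not be analysed. Mest, also on the list, was at 0 counts in every library. The Igf2 mRNA-binding proteins Igf2bp1, Igf2bp2 and Igf2bp3 stood at 13.0, 33.0 and 61.3 CPM in NC and 12.9, 35.3 and 55.4 CPM in si-hnrnpa2b1 libraries, with adjusted p in edgeR = 0.99, 0.57 and 0.26.

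In the growth hormone axis 0 of 5 tested genes passed by edgeR (median log2 -0.03). An unadjusted p below 0.05 was found for 2 of them, beside 2249 of all 12261 tested genes. Stat5a, a transcription factor of this axis, had 34.2 ± 0.827 and 28.6 ± 0.802 CPM (log2 -0.26 ± 0.07, adjusted p in edgeR = 0.055), the receptor Ghr 14.4 ± 0.617 and 12.2 ± 0.436 CPM (adjusted p in edgeR = 0.26) and the kinase Jak2 341 ± 44.3 and 363 ± 17.0 CPM (adjusted p in edgeR = 0.55). DESeq2 called none of these 3, and Jak2 passed only without NC replicate 2 (adjusted p = 0.047). Of the other ligands, binding proteins and receptors, Igfbp7 alone was expressed enough to be tested. The calls of Adam12, Eif4ebp1, Irs1, Pcsk6 and Peg3 were each lost without NC replicate 1 or NC replicate 3 and without si-hnrnpa2b1 replicate 3, and in part without the other si-hnrnpa2b1 libraries, with adjusted p up to 0.13 for Eif4ebp1, 0.22 for Irs1, 0.13 for Pcsk6, 0.18 for Peg3 and 0.11 for Adam12 over all settings.

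**Figure D4:**
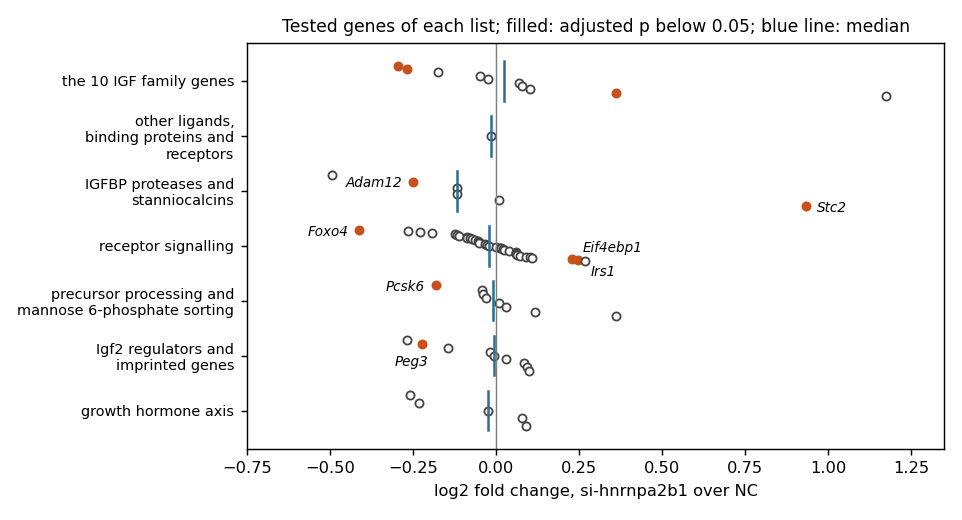
Log2 fold changes of si-hnrnpa2b1 over NC for the 10 members and for the tested genes of 6 surrounding lists (points), with list medians (blue lines) and names of called genes outside the 10 (filled points). Most points lie near 0, with Stc2 (0.93) farthest to the right among called genes and Foxo4 (-0.41) farthest to the left.

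The genes whose profile over the 6 libraries was nearest that of Igf2 were Tspan8, a tetraspanin, Gng10, a G protein gamma subunit, and Cybrd1, a ferric reductase, among 6334 genes with a mean of at least 10 FPKM. The root mean square difference of centred log2 CPM was 0.0127, 0.0470 and 0.0484. Tspan8 gave 28.3, 27.3 and 30.7 CPM in NC and 23.2, 21.8 and 25.0 CPM in si-hnrnpa2b1 libraries (log2 -0.30), with replicate 3 highest and replicate 2 lowest in each group, as for Igf2. The log2 fold changes of Gng10 and Cybrd1 were -0.32 and -0.27. Since the genes were chosen for this likeness, their direction, its size and the order of their libraries follow from the choice and are given with no test.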

How the data were processed

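The authors deposited 1 gene table in which every library has a count column and an FPKM column, matched here to samples by title. The submitters' processing notes list HISAT2 2.0.4, StringTie 1.3.0, edgeR and the build Rnor_6.0 without saying what each did. The deposited counts are unnormalized whole numbers. The deposited FPKM values equal count over model length and column total to within 0.00847% for genes with a mean of at least 20 counts. The sources used here name no counting program, strand setting, annotation release or treatment of shared reads. Models that overlap a member held 0 to 6 counts in all.

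The main test was that of edgeR 4.0.16 under R 4.3.3 (filterByExpr defaults, minimum count 10, total 15; TMM factors 0.989 to 1.01; quasi-likelihood F-test, two-sided, no covariate; Benjamini-Hochberg over 12261 genes, threshold 0.05). The SE is the log2 fold change divided by the square root of F. The procedure was tested on simulated data with changes larger than those of the called members, which says nothing of changes of their size. No replicate pair agreed within sampling noise (chi-square per degree of freedom 2.91 to 6). Alternatives used DESeq2 1.42.0, limma 3.58.1, other scalings and filters, a block and each library left out. Members and lists were chosen with earlier results of these data known. Named genes were the members, a fixed set of relatives, up to 3 genes of the smallest adjusted p per list, the 3 nearest Igf2 in profile and its 4 neighbours in level. Promoter windows are from RefSeq (GRCr8).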

Additional observations from a re-analysis of the deposited data

How the results depend on the processing

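The number of changed genes was 257 and 246 with limma on log2(FPKM + 1) and log2(FPKM + 0.1), against 650 with edgeR, and 379 to 592 when single libraries were left out. Of the 10 members, 3 were called in the main setting, 1 (Igfbp4) with limma at either pseudocount and 2 to 3 without single libraries. Without NC replicate 3 the 3 called were not the same, as Igfbp3 was gained and Igfbp5 lost. Igf2 passed narrowly without si-hnrnpa2b1 replicate 2 (adjusted p in edgeR = 0.0498). Of the pathway genes 7 were called, 3 with limma at either pseudocount, 4 with the replicate block and 2 to 8 without single libraries. The block left 3 members and 481 genes called. The main fit had no block because the labels do not say that a number marks a shared culture or day. The deviations of same-numbered libraries correlated at 0.057, -0.0039 and 0.059, and those of differently numbered libraries at -0.093 to 0.041. Not every library correlated best with its own number. The sign turned among the named genes only when single libraries were left out: log2 -0.044 to 0.17 for Igf1, -0.068 to 0.019 for Igfbp2, -0.10 to 0.046 for Igf2bp1, -0.23 to 0.023 for Pappa, -0.043 to 0.034 for Igfbp7 and -0.068 to 0.0044 for Ptma. Scaling alternatives left the member calls at 3. The cause of these differences was not tested. Depth limits what can be said of Igfbp3, with 6 to 29 counts per library, and of Igfals.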
